A study of Mus musculus with 1753 samples.

Results

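The 10 genes described here encode integrin subunits, namely the alpha subunits Itga1, Itga2, Itga3, Itga5, Itga7, Itga8, Itga10 and Itga11 and the beta subunits Itgb1 and Itgb7. They were taken by name from the 46517 genes counted in single fibroblasts and mural cells of mouse skeletal muscle, mural cells being the smooth muscle cells and pericytes around vessels. All 10 had reads, from 3578 reads for Itga10 to 280556 reads for Itgb1 over all cells. The set is known as the collagen- and laminin-binding integrins, and this name fits 6 of the 8 alpha subunits. Itga1, Itga2, Itga10 and Itga11 encode the collagen-binding alpha subunits, and Itga3 and Itga7 encode laminin-binding ones. Itga5 encodes the alpha subunit of the classical fibronectin receptor, and Itga8 that of a receptor for nephronectin and other proteins with the RGD tripeptide.

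Each of the 1753 samples was 1 cell, sequenced with the full-length Smart-seq2 protocol from male mice of 10 to 20 weeks. Cells had been sorted as negative for the endothelial protein CD31 and positive for PDGFRα or PDGFRβ antibody or for a reporter. The labels gave a cluster number from 1 to 10 and a strain label, and the muscle for part of the cells. In the study's terms clusters 2 and 9 are perimysial fibroblasts (328 cells, from the connective tissue around fibre bundles), cluster 4 is paramysial (60 cells) and clusters 1, 3, 5, 6 and 8 are endomysial (1116 cells, from around single fibres). Cluster 7 was treated as mural (187 cells), and cluster 10 (62 cells) had no class name. The study reports that few pericytes were captured from skeletal muscle. It describes cluster 10 as a further fibroblast subtype with Cspg4, Pdgfra and Ngfr, found at the edge of nerve fibres. The strain labels were C57BL6 (373 cells, an inbred strain with no reporter), PdgfrbGFP (630 cells), Acta2GFP (157 cells), Cspg4dsRED (181 cells) and PdgfraGFP - PdgfrbGFP pool (412 cells, called the pool below). In the reporter lines a fluorescent protein is driven by regulatory sequence of the gene in the name, so these lines mark the cells in which that sequence is active, and the pool mixes a pair of such lines. The PdgfraGFP line carries its reporter in the Pdgfra locus itself and the others carry transgenes. The digestion of Acta2GFP muscle had elastase added. The reporter lines had a C57Bl6/J background, and the labels give no treatment for any group. The labels name no animal, so the strain label served as the replicate, and p-values measure only the spread between these labels.

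Integrins are pairs of 1 alpha and 1 beta subunit that span the cell membrane and tie the matrix outside to the actin cytoskeleton inside. The alpha subunit largely sets the ligand. All 8 alpha subunits in this set pair with the β1 subunit encoded by Itgb1, whereas the β7 subunit encoded by Itgb7 is known as a leukocyte subunit that pairs with α4 and αE. In muscle, α7β1 is best known as the laminin receptor of muscle fibres and smooth muscle, α1β1 and α2β1 as collagen receptors of many cell types, α10β1 as a receptor of cartilage and α11β1 as a receptor of fibroblasts.

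The 5 promoters below belong to alpha subunits that were called between mural cells and fibroblasts, 3 of them higher and 2 lower, and show what their start regions look like. They are RefSeq sequences on the GRCm38.p6 assembly, from 250 bases before to 50 bases after the start of the gene, written 5′ to 3′ on the strand of the gene. Itga1 (chr13:115101915-115102214), Itga3 (chr11:95076665-95076964) and Itga8 (chr2:12301895-12302194) belong to the higher ones, and Itga2 (chr13:114932051-114932350) and Itga11 (chr9:62677605-62677904) to the lower ones. For Itga3 this is the first of 2 listed starts. All but Itga11 lie on the minus strand. Capitals mark the GC box GGGCGG.
Itga1: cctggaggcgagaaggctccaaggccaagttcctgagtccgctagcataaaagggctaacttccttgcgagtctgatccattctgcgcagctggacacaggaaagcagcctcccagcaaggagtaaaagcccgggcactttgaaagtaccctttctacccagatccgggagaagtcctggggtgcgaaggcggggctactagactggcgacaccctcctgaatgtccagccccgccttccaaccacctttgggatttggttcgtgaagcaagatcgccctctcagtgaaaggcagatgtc
Itga3: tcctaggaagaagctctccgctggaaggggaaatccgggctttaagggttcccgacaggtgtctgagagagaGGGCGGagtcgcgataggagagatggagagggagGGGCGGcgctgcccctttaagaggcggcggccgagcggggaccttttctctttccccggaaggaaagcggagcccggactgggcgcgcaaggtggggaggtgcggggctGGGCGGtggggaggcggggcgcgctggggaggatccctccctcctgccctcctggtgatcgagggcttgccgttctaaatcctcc
Itga8: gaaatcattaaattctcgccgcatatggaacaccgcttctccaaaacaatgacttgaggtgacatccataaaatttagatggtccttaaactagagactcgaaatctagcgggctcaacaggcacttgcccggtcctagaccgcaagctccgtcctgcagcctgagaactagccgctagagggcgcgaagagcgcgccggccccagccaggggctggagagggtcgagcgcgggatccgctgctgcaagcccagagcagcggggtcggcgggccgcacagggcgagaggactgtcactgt
Itga2: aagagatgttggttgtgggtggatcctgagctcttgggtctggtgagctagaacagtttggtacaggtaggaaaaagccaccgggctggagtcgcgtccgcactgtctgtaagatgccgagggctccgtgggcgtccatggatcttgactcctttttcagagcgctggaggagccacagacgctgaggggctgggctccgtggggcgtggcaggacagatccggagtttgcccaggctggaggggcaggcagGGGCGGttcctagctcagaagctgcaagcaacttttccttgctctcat
Itga11: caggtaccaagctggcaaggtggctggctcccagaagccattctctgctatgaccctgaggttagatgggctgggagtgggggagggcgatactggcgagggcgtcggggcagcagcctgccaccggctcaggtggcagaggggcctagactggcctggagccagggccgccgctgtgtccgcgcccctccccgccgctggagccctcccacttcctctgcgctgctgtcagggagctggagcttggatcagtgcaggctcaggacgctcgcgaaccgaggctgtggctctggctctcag
A promoter was held for 9 of the 10 members, and not for Itga7. The GC box, searched as GGGCGG on both strands, was found in the promoters of Itgb1, Itga2, Itga3 and Itga5, with 3 copies in that of Itga3. Of all 32851 promoters of this length, 35.7% held it. The CArG box, the binding sequence of serum response factor in smooth muscle promoters, was present in 1.63% of all promoters and matched none of the 9 members. The TATA box, searched as TATAAA on both strands, was present in 13.6% of promoters and also matched none. The GC box was the only one of these motifs in the printed windows, so no matches overlap.

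The strain labels differed in quality. The depth of a cell lay between 46097 and 1055869 counts (median 258251). Cspg4dsRED cells stood apart, with a median of 2283 genes against 4057 to 5443 in the other strain labels. Itgb1 was read in 57.5% of Cspg4dsRED cells and in 97.3 to 99.4% of the cells of the other labels. It had enough cells in clusters 2, 6, 7 and 10, and the main values of these clusters are therefore given below without it as well. In Acta2GFP, the 6 mural markers summed to 355 scaled counts in endomysial cells, against 18.6 to 120 in the others. Fibroblast markers summed to 7454 to 10217 scaled counts in fibroblasts and 111 to 624 in mural cells, and mural markers to 45.5 to 452 and 7843 to 12429. The extraction text names the heart while the tissue label names skeletal muscle. The 5 cardiac muscle markers summed to between 0.192 and 18.6 scaled counts in mural cells and 0.769 to 4.85 in fibroblasts of a strain label. Clusters had been made by the authors from these same counts, so a difference between clusters is in part what defined them.

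Levels are given as scaled counts, in which each cell was scaled to 500000 counts without spike-ins, averaged over the cells of a cluster within a strain label and then over the labels with 3 or more cells (mean ± SD). Per kilobase of exon, Itgb1 had the highest mean of the 10 genes in every cluster, from 41.3 in cluster 10 to 114 in cluster 7. Among alpha subunits Itga11 led per kilobase in clusters 1, 2, 3, 4, 5, 8 and 9, Itga5 in clusters 6 and 10, and Itga7 in cluster 7. Ranges over strain labels overlapped for most neighbours in the order of clusters. They were apart only between clusters 7 and 4 and clusters 6 and 3 for Itga7, and between clusters 9 and 2 for Itga8.

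**Figure D1:**
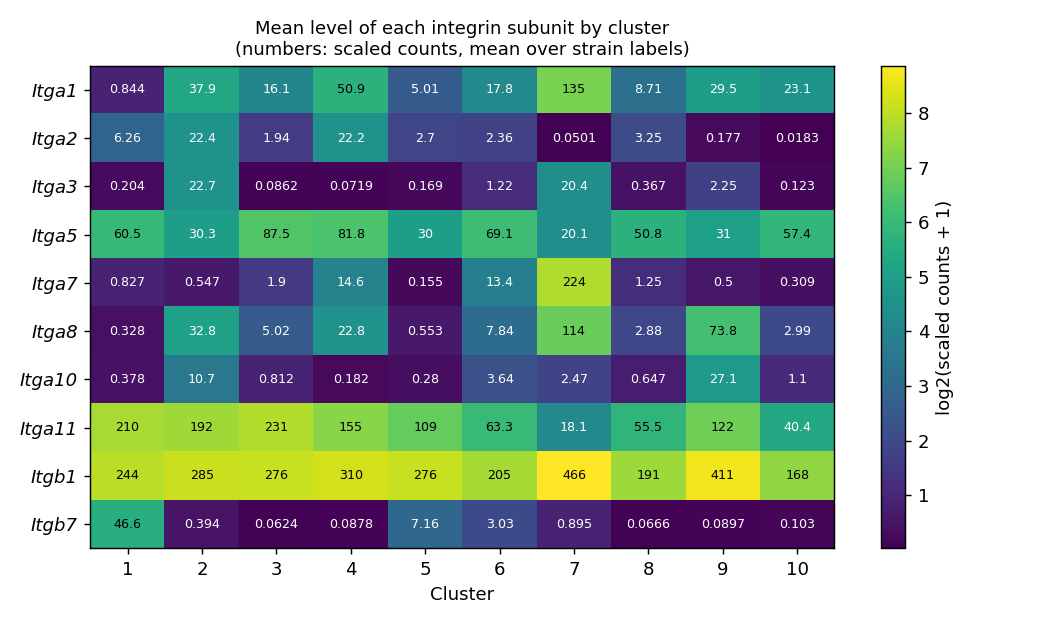
Mean level of each member (rows) in each cluster (columns), as log2(scaled counts + 1) of the mean over strain labels, where darker means lower. Itga7 stood at 224 scaled counts in cluster 7 and at 14.6 or less in every other cluster.

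The collagen-binding subunits differed in which clusters held them. Itga11 (ENSMUSG00000032243, chromosome 9, 62677826 to 62783982 in GRCm38) was the main one of fibroblasts. Its level was 231 ± 25.2 in cluster 3 (n = 4 strain labels), 210 ± 69.8 in cluster 1 (n = 4) and 192 ± 55.9 in cluster 2 (n = 5). It was 63.3 ± 35.7 in cluster 6 and 55.5 ± 30.6 in cluster 8 (n = 4 each), which are endomysial as well. The lowest fibroblast level was 40.4 ± 12.02 in cluster 10 (n = 3), and the mural level was 18.1 ± 29.7 (n = 5). Itga11 was read in 93.2% of cluster 1 cells (exact binomial 95% interval 88.1 to 96.5%) and in 33.7% of mural cells (27.0 to 40.95%). These intervals cover counting error only. By strain label the mural share ran from 4.05% in Cspg4dsRED to 81.8% in the pool. With each cell thinned to 40000 reads, the shares over all labels were 81.4% in cluster 1 and 13.4% in mural cells. Within the endomysial fibroblasts its mean was therefore higher in clusters 1 and 3 than in 6 and 8.

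Itga1 (ENSMUSG00000042284, chromosome 13, 114953096 to 115101964) was highest in mural cells, at 135 ± 89.2 scaled counts (n = 5). The values were 85.0 in Acta2GFP, 190.1 in C57BL6, 50.2 in Cspg4dsRED, 84.5 in PdgfrbGFP and 264 in the pool. Cluster 4 followed at 50.9 ± 30.7 (n = 4), cluster 2 at 37.9 ± 22.02 (n = 5) and cluster 9 at 29.5 ± 17.8 (n = 4). The lowest level was 0.844 ± 0.635 in cluster 1 (n = 4), where Itga11 was near its highest. Itga1 shares 3.68% of its exonic bases with the gene Gm49395 on the same strand, and its counts are uncertain to that degree.

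Itga2 (ENSMUSG00000015533, chromosome 13, 114833081 to 114932100) lies next to Itga1 and had few positive cells, 159 of 1753. Its level was 22.4 ± 17.6 in cluster 2 (n = 5) and 22.2 ± 40.8 in cluster 4 (n = 4). In cluster 4 the strain labels gave 0, 0.750, 4.67 and 83.3, and the highest value rested on 1 of 3 C57BL6 cells. In clusters 7, 9 and 10 it was close to 0, with 4, 3 and 1 reads in all. Itga10 (ENSMUSG00000090210, chromosome 3, 96645584 to 96664519) showed the opposite order of the perimysial clusters, at 27.1 ± 10.9 in cluster 9 (n = 4) and 10.7 ± 12.004 in cluster 2 (n = 5). Elsewhere it was 3.64 or less. Itga10 shares 33.5% of its exonic bases with Gm42957 on the same strand, so part of its counts may have been assigned to neither or to the other gene.

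**Figure D2:**
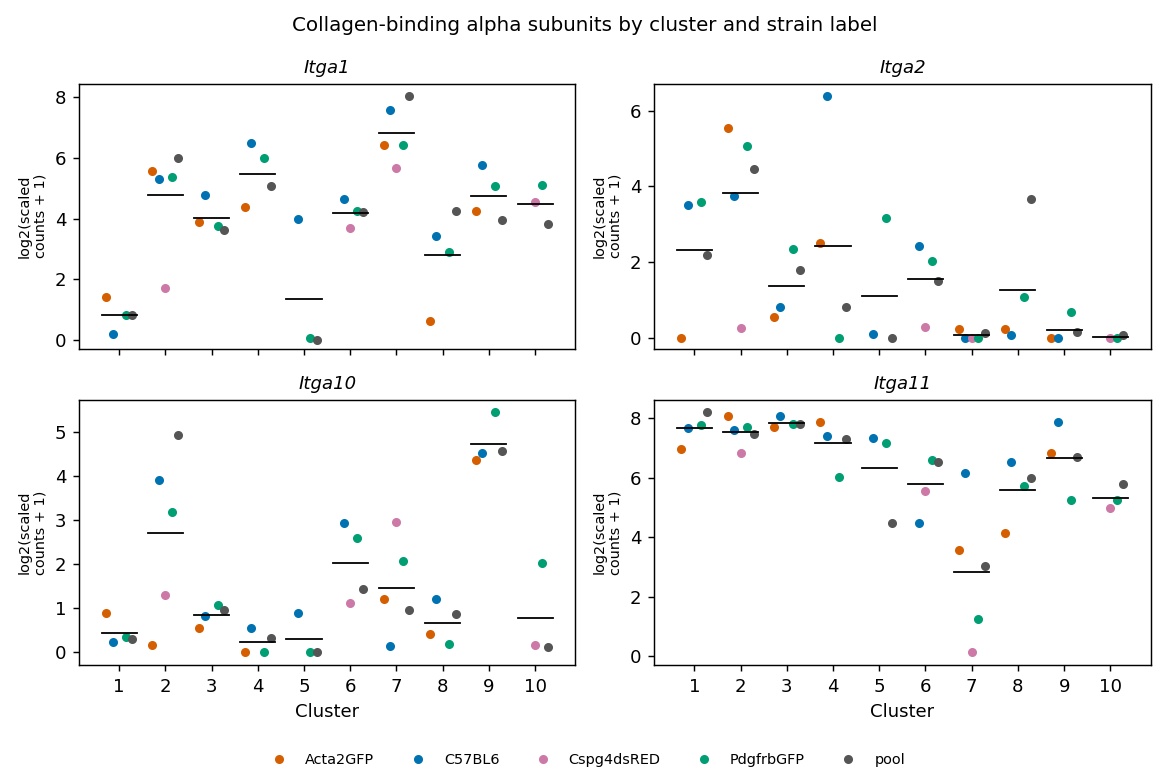
Level of the collagen-binding subunits by cluster, 1 point per strain label with 3 or more cells, as log2(scaled counts + 1), with the black bar as the mean over labels. Itga11 is high in clusters 1 to 5 and 9, Itga1 in cluster 7, Itga2 in cluster 2 and Itga10 in clusters 2 and 9, where its Acta2GFP value in cluster 2 lies at 0.122 scaled counts.

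Per kilobase of exon, the makeup of the collagen-binding set can be compared between genes. Itga11 took 72.4% ± 20.8 of the summed level per kilobase in cluster 9 (n = 4) and 97.7% ± 2.04 in cluster 5 (n = 3), with the other fibroblast clusters between. In mural cells Itga1 took 69.7% ± 18.4 and Itga11 20.5% ± 23.6 (n = 5). Itga10 took 21.99% ± 17.8 in cluster 9, its highest share. The summed level of the 4 genes was 46.2 ± 5.21 scaled counts per kilobase in cluster 3 and 11.9 ± 6.50 in cluster 8 (n = 4 each). After thinning, 30.1% of cluster 2 cells held reads of exactly 2 of the 4 genes and 9.29% held 3 or 4. In cluster 1 these shares were 11.2% and 0.621%, and in mural cells 8.56% and 0.535%. The detection of several collagen-binding subunits in 1 cell was thus most frequent in clusters 2, 4 and 9, where 39.4%, 41.7% and 40.7% of cells held 2 or more.

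Of the laminin-binding subunits, Itga7 (ENSMUSG00000025348, chromosome 10, 128933818 to 128958282) was nearly limited to mural cells. Its mural level was 224 ± 74.5 (n = 5), with 195 in Acta2GFP, 185 in C57BL6, 170.2 in Cspg4dsRED, 216 in PdgfrbGFP and 354 in the pool. It was read in 139 of 187 mural cells, and 90 cells held 100 or more scaled counts. Muscle stem cells also carry α7. Their 5 markers summed to 56.9 scaled counts in Acta2GFP mural cells and 0 to 0.0922 in the mural cells of the other labels. In mural cells without a read of these markers Itga7 stood at 172 to 370 scaled counts. Among fibroblasts Itga7 reached 14.6 ± 21.5 in cluster 4 (n = 4) and 13.4 ± 8.55 in cluster 6 (n = 4). In cluster 6, 3 of 231 cells held at least as many reads as the other cells together. In Acta2GFP, Itga7 was read in 53.3% of endomysial cells against 5.74 to 14.2% in the other labels, at 3.96 scaled counts. The mural markers were raised in the same cells, as given above, and their part in this was not tested.

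Itga3 (ENSMUSG00000001507, chromosome 11, 95044474 to 95076801) was found in few cells of clusters 2 and 7. Its level was 22.7 ± 24.3 in cluster 2 and 20.4 ± 20.5 in cluster 7 (n = 5 each). The mural values were 44.3 in Acta2GFP and 41.4 in Cspg4dsRED and 4.21 to 7.05 in the others, so they fell into a high and a low range. Reads were present in 22 of 269 cluster 2 cells and in 44 of 187 mural cells, and in either cluster 5 cells held at least as many reads as all others together. In the other clusters the mean was 2.25 or less. Of all 8 alpha subunits per kilobase, Itga7 took 43.9% ± 9.18 of the mural sum, Itga8 25.1% ± 8.64, Itga1 11.2% ± 6.49 and Itga3 6.18% ± 6.51 (n = 5).

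The receptors of RGD proteins were split between the classes. Itga5 (ENSMUSG00000000555, chromosome 15, 103344286 to 103366763) was spread over the fibroblasts, with 87.5 ± 18.3 in cluster 3, 81.8 ± 43.9 in cluster 4 and 69.1 ± 19.2 in cluster 6 (n = 4 each). Cluster 2 had 30.3 ± 20.8 and cluster 7 had 20.1 ± 17.01 (n = 5 each). Its share of all 8 alpha subunits per kilobase was highest in cluster 10 (54.2% ± 6.42, n = 3), cluster 8 (47.5% ± 16.1) and cluster 6 (45.2% ± 3.16, n = 4 each). Itga8 (ENSMUSG00000026768, chromosome 2, 12106632 to 12301922) was high in mural cells, at 114 ± 40.1 (n = 5), and in cluster 9, at 73.8 ± 16.96 (n = 4). Cluster 2 followed at 32.8 ± 21.3 (n = 5), where Cspg4dsRED had 0 and the other labels 25.2 to 54.0. Endomysial clusters had 0.328 to 7.84. Itga8 shares 5.05% of its exonic bases with the antisense gene E030013I19Rik, and whether reads were counted by strand is not given in the sources used here, so the reads of this stretch cannot be told apart.

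**Figure D3:**
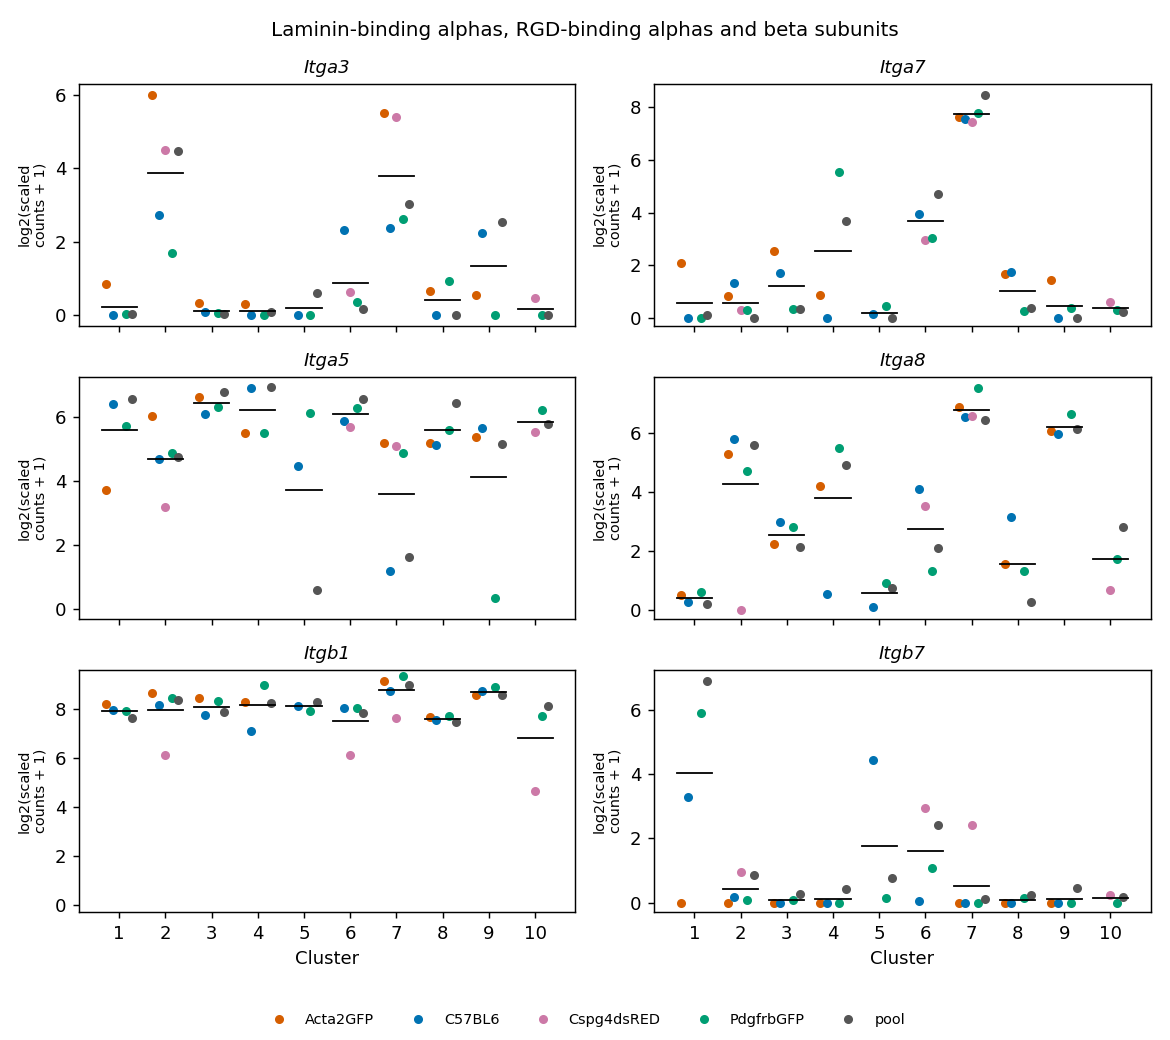
Level of the remaining members by cluster, 1 point per strain label with 3 or more cells, as log2(scaled counts + 1), with the black bar as the mean over labels. Itga7 is set apart in cluster 7, Itga8 in clusters 7 and 9, and Itgb7 in cluster 1, while Itgb1 is present in all clusters.

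The shared β1 subunit, Itgb1 (ENSMUSG00000025809, chromosome 8, 128685654 to 128733200), was at 466 ± 173 in mural cells (n = 5) and 411 ± 44.3 in cluster 9 (n = 4), and between 168 and 310 in the other clusters. Cspg4dsRED was the lowest label wherever it had enough cells, with 196 in cluster 7, 68.7 in cluster 2, 68.4 in cluster 6 and 24.3 in cluster 10. After thinning to 40000 reads, Itgb1 was read in 171 of 187 cluster 2 cells with Itga11 and in 111 of 129 mural cells with Itga7. Of all cells, with or without these alpha subunits, Itgb1 was read in 239 of 269 in cluster 2 and 153 of 187 in cluster 7. Most cells thus had a read of Itgb1 in any case, and the overlap says little about pairing.

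Itgb7 (ENSMUSG00000001281, chromosome 15, 102215995 to 102231944) was the member most uneven between cells. In cluster 1 it was at 46.6 ± 54.5 (n = 4), with 0 in Acta2GFP, 8.83 in C57BL6, 58.9 in PdgfrbGFP and 119 in the pool. Only 35 of 161 cells of cluster 1 had a read, yet 24 of them held 100 or more scaled counts, and 6 cells held at least as many reads as all others. Outside cluster 1 the mean was 7.16 ± 11.7 in cluster 5 (n = 3), 3.03 ± 3.02 in cluster 6 (n = 4) and 0.895 or less in the rest. The α partners of β7 were looked up after these values had been seen. Itgae had 0 reads in cluster 1, and Itga4 had 34 reads in all, in 5 of the 35 Itgb7 cells. The 5 immune markers summed to 0.0723 scaled counts in the Itgb7 cells and to 4.12 in the other cells of cluster 1, and 1 of the 35 cells had a read of any of them. Of these 5 markers, Ptprc and Tyrobp were at 0 in cluster 1 and the others had some reads. The authors had removed cells with a clear immune signature beforehand. Low immune markers were therefore in part fixed in advance and do not show what the Itgb7 cells are.

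Without Cspg4dsRED the mean of Itgb1 was higher in each of clusters 2, 6, 7 and 10. The mural means over the other 4 labels were then 534 ± 96.8 scaled counts for Itgb1, 237 ± 78.7 for Itga7, 156 ± 87.4 for Itga1, 119 ± 44.5 for Itga8, 22.6 ± 32.3 for Itga11 and 15.2 ± 19.4 for Itga3. In cluster 2 they were 340 ± 46.97 for Itgb1, 212 ± 38.97 for Itga11, 46.9 ± 10.7 for Itga1, 41.02 ± 12.4 for Itga8, 35.8 ± 19.3 for Itga5, 27.9 ± 14.4 for Itga2, 23.04 ± 27.995 for Itga3 and 13.02 ± 12.5 for Itga10. In cluster 6 Itgb1 was at 250.3 ± 20.8, Itga5 at 75.5 ± 17.6, Itga11 at 69.1 ± 41.4 and Itga7 at 15.6 ± 8.97 (n = 3), and in cluster 10 Itgb1 was at 241 ± 44.8, Itga5 at 63.5 ± 14.2 and Itga11 at 45.3 ± 12.01 (n = 2).

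Mural cells were compared with fibroblasts of all clusters in the 5 strain labels to ask which subunits separate them. Of 10 members, 7 were called, 5 higher and 2 lower, where 15.4% of all 13880 genes tested were called in either direction. Mural cells had more of Itga7, Itga8, Itga3, Itga1 and Itgb1 and less of Itga2 and Itga11, in 5 of 5 labels each. Without Cspg4dsRED 6 were called, all of these but Itga3. Leaving out each label in turn gave 5 to 7 members and 1230 to 2257 called genes in all. The fold changes without Cspg4dsRED were 6.64 for Itga7, 3.37 for Itga8, 2.96 for Itga1, 1.15 for Itgb1, −4.21 for Itga11 and −6.28 for Itga2 on the log2 scale. Itga7 changed most among those higher, by a log2 fold change of 6.40 ± 0.54 (SE) with an adjusted p of 0.00023 (quasi-likelihood test of edgeR, Benjamini-Hochberg adjustment). The fibroblast levels were 1.47 to 4.82 scaled counts and the mural levels 170.2 to 354, so the groups were far apart. In bulk sums of this kind, fewer cells with a gene and less RNA per cell cannot be told apart.

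Itga8 was at 85.2 to 182 scaled counts in mural cells and at 4.91 to 27.3 in fibroblasts. Its log2 fold change was 3.52 ± 0.46 (adjusted p = 0.0015, quasi-likelihood test of edgeR, Benjamini-Hochberg adjustment). Itga1 was at 14.6 to 26.8 in fibroblasts, below each of the mural values given above, and rose by 2.58 ± 0.42 (adjusted p = 0.0044, edgeR test as above). Itgb1, their partner, was higher by 1.26 ± 0.21 (adjusted p = 0.0044, edgeR test as above). Its mural levels were 561 in Acta2GFP, 421 in C57BL6, 196 in Cspg4dsRED, 651 in PdgfrbGFP and 502 in the pool. The fibroblast levels in the same order were 334, 254, 54.99, 277 and 241, so the ranges overlapped through Cspg4dsRED while each label kept the direction. Without the block on the strain label the call of Itgb1 was lost, at 1.17 (adjusted p = 0.061, edgeR test as above).

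Itga11 was lower in mural cells by a log2 fold change of −4.90 ± 0.96 (adjusted p = 0.00998, quasi-likelihood test of edgeR, Benjamini-Hochberg adjustment). Its mural levels were 0.116 to 10.9 in 4 labels and 70.7 in C57BL6, where 161 of 165 reads came from 1 of 9 cells. Fibroblast levels were 47.2 in Cspg4dsRED and 151 to 181 in the others. Itga2 had 4 reads in 187 mural cells and 5601 in 1566 fibroblasts, a ratio of 108 relative to the total counts of each class. The exact 95% counting interval, which treats reads as independent, was 42.2 to 397. By cells, Itga2 was read in 4 of 187 mural cells and 155 of 1566 fibroblasts. Its fitted log2 fold change was −6.95 ± 1.48 (adjusted p = 0.014, edgeR test as above), and the call was lost without PdgfrbGFP (adjusted p = 0.057). Itga3 was higher by 3.22 ± 0.83 (adjusted p = 0.032, edgeR test as above). That call was lost without Acta2GFP, Cspg4dsRED, PdgfrbGFP or the pool, with cells weighted alike and with no filter on low counts, at values between 2.50 and 3.19. The values of the remaining members did not pass: Itga5 at −2.47 ± 1.03, lower in 5 of 5 labels, Itga10 at −0.95 ± 1.33 and Itgb7 at −5.39 ± 2.54. DESeq2 called Itga5 and Itgb7 as well, and 9 members and 4336 genes in all. Of the 7416 fibroblast reads of Itgb7, 6840 lay in cluster 1, while clusters 3 and 8 had 22 and 10. Beside these values, immune markers summed to 342 scaled counts in the 9 C57BL6 mural cells and to 0.107 to 7.55 in the mural cells of the other labels. Their part was not tested.

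**Figure D4:**
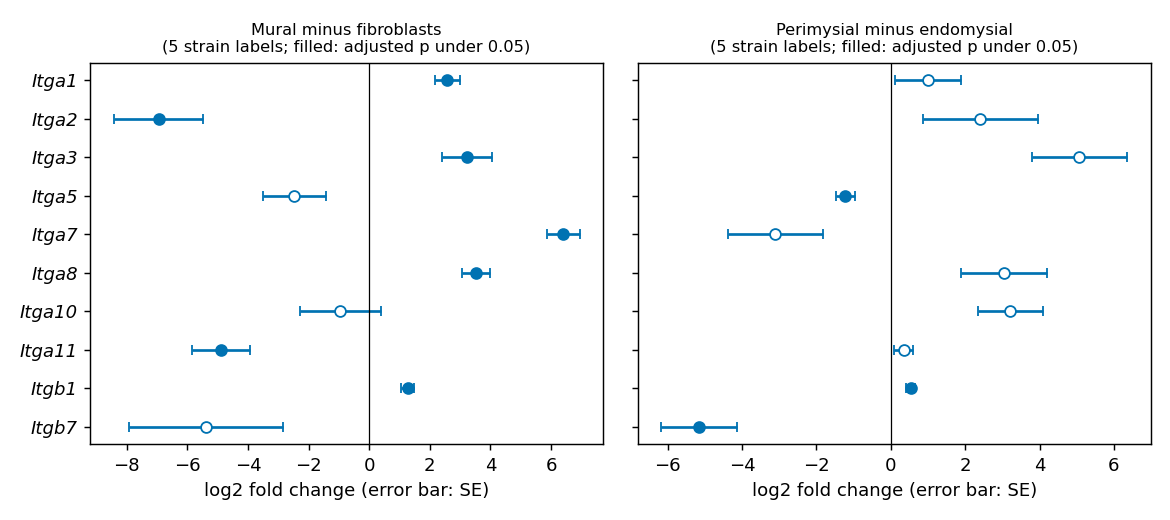
Fitted log2 fold change (x axis) of each member in mural cells against fibroblasts (left) and in perimysial against endomysial fibroblasts (right), with the SE as bars. Filled points had an adjusted p under 0.05, 7 on the left and 3 on the right.

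Perimysial and endomysial fibroblasts were compared to describe the integrins of the outer and inner connective tissue. Of 10 members, 3 were called, where 5.57% of all 14121 genes were called in either direction. Itgb1 was higher in perimysial cells by a log2 fold change of 0.54 ± 0.12 (SE) in 5 of 5 labels (adjusted p = 0.041, quasi-likelihood test of edgeR, Benjamini-Hochberg adjustment). Its perimysial levels were 82.4 in Cspg4dsRED and 296 to 383 in the others, and the endomysial levels 68.2 and 219 to 308. Itga5, the fibronectin receptor subunit, was lower by −1.22 ± 0.25 in 5 of 5 labels (adjusted p = 0.035, edgeR test as above). Perimysial levels of Itga5 were 7.27 to 48.7 and endomysial levels 49.4 to 99.6, so the ranges were just apart. The mean of endomysial cluster 5 was 30.0 ± 34.6 (n = 3), near those of perimysial clusters 2 (30.3) and 9 (31.0). The difference in Itga5 thus was not seen in the mean of each endomysial cluster. Itgb7 was lower by −5.15 ± 1.02 (adjusted p = 0.037, edgeR test as above), with 27 perimysial against 7373 endomysial reads. Its level was lower in 4 labels, and Acta2GFP had no read in either class. Cluster 1 held 6840 of the endomysial reads, in 35 cells. Endomysial clusters 3 and 8 had mean levels of 0.0624 and 0.0666, below perimysial clusters 2 (0.394) and 9 (0.0897). The difference in Itgb7 thus did not hold for all endomysial clusters.

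The remaining members had large but less even differences. Itga3 was at 1.91 to 21.97 scaled counts in perimysial and 0.0403 to 0.944 in endomysial cells, with no overlap and a log2 fold change of 5.07 ± 1.28 (adjusted p = 0.073, quasi-likelihood test of edgeR, Benjamini-Hochberg adjustment). Itga10 was at 13.1 to 27.99 in 4 labels and 1.28 in Cspg4dsRED, against 0.451 to 2.23 in endomysial cells, a log2 fold change of 3.22 ± 0.86 (adjusted p = 0.089, edgeR test as above). Itga8 was at 36.2 to 56.4 in the same 4 labels and 0.753 in Cspg4dsRED, against 2.47 to 9.61. Its value was 3.04 ± 1.15. Itga2 gave 2.41 ± 1.55, Itga1 1.01 ± 0.89, Itga11 0.35 ± 0.26 and Itga7 −3.11 ± 1.28, none of which passed. For Itga1, Itga2 and Itga8 the Cspg4dsRED perimysial value, from 18 cells, was far below the other 4.

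The calls in this comparison depended on the strain labels. Without Cspg4dsRED 6 members were called, and 1416 genes in all. The 6 members were Itga1 at 1.73, Itga8 at 3.81 and Itga10 at 3.81 beside Itga5 at −1.07, Itgb1 at 0.60 and Itgb7 at −5.64. Without C57BL6, PdgfrbGFP or the pool 0 were called, and without Acta2GFP only Itgb7. Without the block on the strain label, Itga3 at 5.16 and Itga10 at 3.32 were called and Itga5, Itgb1 and Itgb7 were not. DESeq2 called 7 members, adding Itga3, Itga7, Itga8 and Itga10, and 2068 genes in all, against 787 by the edgeR test.

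Within the perimysial fibroblasts Itga2 set the clusters apart by level. This pair was singled out for Itga2 when the set was chosen, so its values are a description. In cluster 2 the strain labels gave 45.5 scaled counts in Acta2GFP, 12.5 in C57BL6, 0.194 in Cspg4dsRED, 32.8 in PdgfrbGFP and 20.9 in the pool. In cluster 9 they gave 0 in Acta2GFP, 0 in C57BL6, 0.592 in PdgfrbGFP and 0.116 in the pool, with too few Cspg4dsRED cells. All labels but Cspg4dsRED lay above the cluster 9 range. There were 3032 reads in 269 cells of cluster 2 and 3 reads in 59 cells of cluster 9. The ratio relative to the total counts of each cluster was 287 (exact 95% counting interval 97.9 to 1390). That interval treats reads as independent, so it is too narrow for a difference between cells and is no test of this pair. Itga2 was read in 22.3% of cluster 2 cells (exact binomial 95% interval 17.5 to 27.8%) and 3.39% of cluster 9 cells (0.413 to 11.7%). These intervals cover counting error only, and by strain label the cluster 2 share ran from 6.25% in Cspg4dsRED to 58.3% in Acta2GFP. After thinning, the shares over all labels were 19.3% in cluster 2 and 0 of 59 cells in cluster 9, which allows a share of up to 5.08%. Of the 60 positive cells in cluster 2, 24 held 100 or more scaled counts and 10 held at least as many reads as the others together. Most cluster 2 cells thus had no read of Itga2 at this depth.

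**Figure D5:**
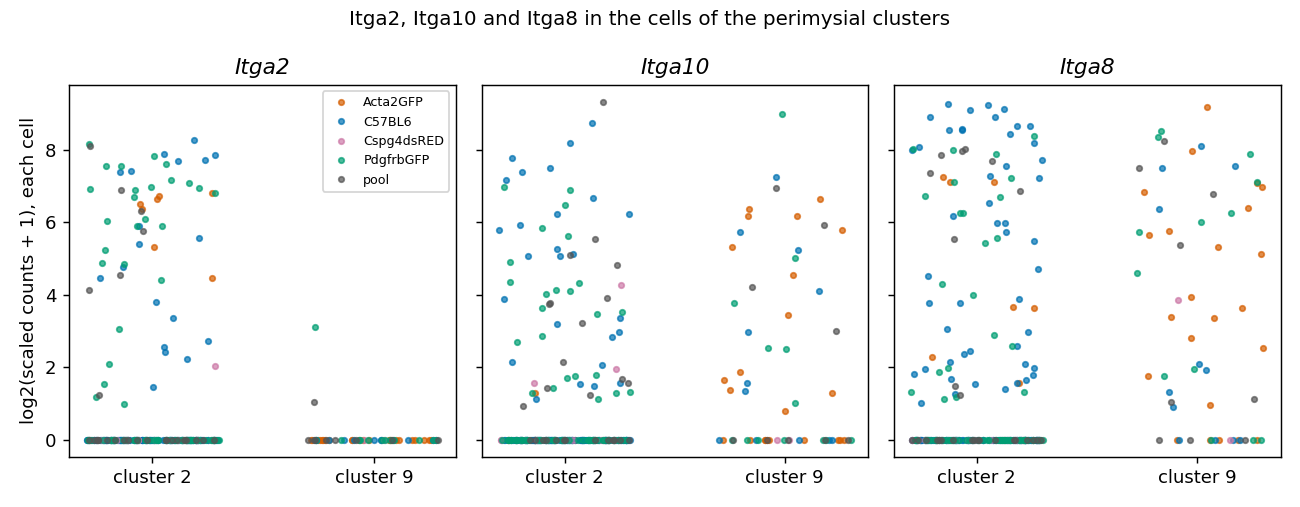
Itga2, Itga10 and Itga8 in single cells of clusters 2 (269 cells) and 9 (59 cells), as log2(scaled counts + 1), 1 point per cell coloured by strain label. For Itga2, 60 cells of cluster 2 and 2 of cluster 9 lie above 0, for Itga10 68 and 30, and for Itga8 86 and 43.

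The other members of this pair were tested in 4 labels, and 0 of 7 were called, where 0.92% of all 11843 genes were. At an unadjusted p under 0.05 there were 2 members and 1087 of all genes tested. DESeq2 called 2 members, Itga3 and Itga11, and 857 genes in all. Itga10 gave −1.96 ± 1.02 (SE, log2 fold change of cluster 2 against 9), and its mean level per cell was lower in cluster 2 in 3 of 4 labels. These levels were 0.122, 14.1, 8.18 and 29.7 in cluster 2 and 19.9, 22.2, 43.2 and 22.9 in cluster 9 for Acta2GFP, C57BL6, PdgfrbGFP and the pool, so the pool value of cluster 2 lay inside the cluster 9 range. In cluster 9, 10 cells held 86.9% of the Itga10 reads. Itga8 gave −0.72 ± 0.45 in 4 of 4 labels, and its level ranges were apart, at 25.2 to 54.0 in these labels of cluster 2 and 60.6 to 98.5 in cluster 9. Itga3 gave 3.69 ± 1.59 and Itga11 1.25 ± 0.40, the latter called also with no filter on low counts, at 1.30. Itga1, Itga5 and Itgb1 gave 1.23 ± 0.64, 1.13 ± 0.99 and −0.16 ± 0.19. Itga7 and Itgb7 were too low to be tested.

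Paramysial cells were set against endomysial cells in 4 labels. Of 8 members tested 0 were called by the edgeR test, where 0.0963% of 14533 genes were called. At an unadjusted p under 0.05 there were 2 members and 981 of all genes tested. DESeq2 called 0 members and 787 genes in all. The 2 members were Itga1, at 1.97 ± 0.81 and higher in 4 of 4 labels, and Itga10, at −2.95 ± 1.34 and lower in 4 of 4. Itga10 rested on 16 paramysial reads, 15 of them in the pool, at levels of 0 to 0.470 scaled counts. With so few cells in the other labels, its direction there says little. The paramysial Itga1 levels were 20.0 in Acta2GFP, 88.5 in C57BL6, 62.4 in PdgfrbGFP and 32.6 in the pool, all above the endomysial range of 9.54 to 16.6. Itga11 gave −0.59 ± 0.32, while its mean level per cell was lower in 2 of 4 labels and higher in the other 2. The paramysial cells of C57BL6, Acta2GFP and PdgfrbGFP numbered 3, 6 and 4, against 46 in the pool.

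Cluster 10 was compared with endomysial cells in 3 labels. The test called 0 of 8 members, against 0.442% of 12455 genes. At an unadjusted p under 0.05 there were 3 members and 1113 of all genes tested. DESeq2 called 2 members, Itga2 and Itgb7, and 1005 genes in all. Itga2 had 1 read in cluster 10 and 1828 in the 847 endomysial cells of these labels, a ratio of 111 relative to the total counts of each class (exact 95% counting interval 19.96 to 4401). For Itgb7, with 4 and 6857 reads, the ratio was 104 (40.8 to 383). Over all labels, cluster 1 held 6840 of the endomysial Itgb7 reads. Clusters 3 and 8 had mean levels of 0.0624 and 0.0666, below 0.103 in cluster 10. The difference in Itgb7 thus did not hold for all endomysial clusters. Itga2 was read in 1 of 62 cluster 10 cells and in 69 of these 847 endomysial cells, and Itgb7 in 4 and 79. The intervals treat reads as independent and leave out the spread between cells and labels, so they are too narrow for a difference between classes. Itga11 gave −1.61 ± 0.47, lower in 3 of 3 labels, and Itga1 0.95 ± 0.85, higher in 3 of 3. Itga5 lay at 45.2 to 73.5 scaled counts in cluster 10 and differed by 0.017 ± 0.46. Cspg4dsRED gave 37 of the 62 cells, and without it 0 members were called as well.

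Among the 5 endomysial clusters, 2 of 10 members were called in 4 labels, where 5.46% of 16498 genes were. Itgb7 spanned a fitted range of 9.74 on the log2 scale between clusters (adjusted p = 0.029, quasi-likelihood test of edgeR, Benjamini-Hochberg adjustment) and was highest in cluster 1. Itga7 spanned 7.92 (adjusted p = 0.024, edgeR test as above) and was highest in cluster 6, at 6.79 to 25.0 scaled counts against 4.77 or less in the other endomysial clusters. Both calls were lost without PdgfrbGFP and without the pool, and that of Itga7 also without the block. Itga11 spanned 2.42 and did not pass (adjusted p = 0.086, edgeR test as above), but was called by DESeq2, which called 5 members with Itga8 and Itga10. Of all genes DESeq2 called 2588, against 900 by the edgeR test.

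The endomysial cells of the slow soleus muscle and the fast gastrocnemius muscle of the calf had been kept apart in PdgfrbGFP and the pool. None of 9 members tested was called, with 0 at an unadjusted p under 0.05 and 0 by DESeq2, and the edgeR test called 0% of 16337 genes. Of all genes, 807 had an unadjusted p under 0.05 in the edgeR test, and DESeq2 called 115. Itga1 was higher in soleus in both labels, at 10.5 and 15.3 scaled counts against 7.46 and 8.95, and Itga7 at 2.74 and 9.82 against 1.62 and 1.67. Itgb7 went opposite ways, at 0.0400 in soleus and 16.5 in gastrocnemius of PdgfrbGFP and at 37.1 and 13.1 in the pool. Soleus and gastrocnemius cells of the pool had been sorted into separate plates, while those of PdgfrbGFP carry the same plate name. The pool values therefore compare plates as well as muscles, and the part of the plate was not tested. With a pair of labels the fit leaves few degrees of freedom.

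The molecules around the integrins were followed with 3 lists. Of 17 adhesion adaptors tested in mural cells against fibroblasts, 9 were called, all higher, where 15.4% of all genes were called in either direction, with a median log2 fold change of 1.24 against −0.46 over all genes. The largest were Flna, a filamin that crosslinks actin (3.74 ± 0.19), Vcl, the adaptor vinculin (2.25 ± 0.26), and Tns1, a tensin (2.21 ± 0.26). Flna stood at 1818 ± 376 scaled counts in mural cells and 130 ± 10.5 in fibroblasts (n = 5). Of 5 non-integrin receptors 3 were called. Bcam, a laminin receptor of the immunoglobulin superfamily, was higher by 7.96 ± 0.49, at 873 ± 458 against 6.37 ± 7.07. The collagen receptors Mrc2 and Ddr2 were lower, by −6.06 ± 0.86 and −1.27 ± 0.31. Mural cells thus had more of Itga7 and Bcam, which encode laminin receptors, and less of Itga11, Itga2, Mrc2 and Ddr2, which encode collagen receptors, while the collagen-binding Itga1 was higher. Of 8 other integrin subunits tested 1 was called, the platelet subunit Itga2b, lower by −5.73 ± 1.06 at 0.393 ± 0.313 against 11.8 ± 4.30.

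In perimysial against endomysial cells 3 of 17 adaptors were called, where 5.57% of all genes were. Lims2, an adaptor of the integrin-linked kinase complex, was at 3.09 ± 1.68 scaled counts in perimysial and 133 ± 42.5 in endomysial cells (n = 5), a log2 fold change of −5.63 ± 0.38. Zyx, encoding zyxin, was lower by −2.09 ± 0.19, and the tensin Tns3 was higher by 2.92 ± 0.44, at 158 ± 96.5 against 18.5 ± 8.34. Ddr2 was the only one of 5 non-integrin receptors called, at −0.88 ± 0.20, and 0 of 9 other integrin subunits were called. Among endomysial clusters 1 of 9 other subunits (the laminin-binding Itga6, with a range of 6.65), 4 of 18 adaptors and 1 of 5 receptors were called, where 5.46% of all genes were. In the paramysial, cluster 10, soleus and cluster 2 against 9 comparisons 0 genes of the 3 lists were called.

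Genes whose pattern was most like that of a member were sought over 37 groups of cluster and strain label with 5 or more cells, among 10152 genes, with Pearson r as the measure. These groups share libraries and depth, and no test was made. Itga7 was followed most closely by Cox4i2 (r = 0.986), Notch3 (0.985) and Mrvi1 (0.978). Itga8 was followed by Palld (0.919) and Actn1 (0.899), then by E030013I19Rik (0.894), with which it shares exonic bases. Itga1 was followed by Epas1 (0.833), Itga10 by Wasf1 (0.908), Itga11 by Fndc1 (0.877), Itga5 by Gm47302 (0.841) and Itgb1 by Eif4g2 (0.912). Among the members themselves the highest r was 0.75 between Itga1 and Itga8, and the lowest was −0.52 between Itga7 and Itga11. Itga5 and Itga11 had an r of 0.578. The members thus formed no single pattern, with Itga1, Itga7 and Itga8 on 1 side and Itga5 and Itga11 on the other.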

How the data were processed

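Single cells of mouse skeletal muscle had been sorted into plates and sequenced with Smart-seq2, which has no molecular identifiers. The authors deposited raw read counts per gene and cell. Per the labels and the methods, reads were demultiplexed with bcl2fastq, trimmed with trim galore and mapped to GRCm38 (mm10) with TopHat2, using Bowtie1 or Bowtie2. They were then freed of duplicates with samtools and counted with featureCounts of Subread. The annotation release and the use of strand are not given in the sources used here. The authors removed cells with too few counts or genes, and with very many genes as possible doublets. They also removed cells without Pdgfra or Pdgfrb expression and cells with clear endothelial or immune signatures. No doublet caller was run here.

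Of 1754 columns, 1753 matched a labelled cell and 1 was not used. No columns were identical. Spike-ins (92 features, 1.31% of counts) were left out of all totals. Of 46517 gene identifiers, 46005 matched GENCODE M21 (GRCm38), which gave symbols, positions and exon lengths. Exact (Clopper-Pearson) intervals and the limit for a count of 0 (3 counts) cover counting error only. For shares of cells with a read, each cell was also thinned to 40000 reads.

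Counts were summed over the cells of a class within a strain label (3 or more cells) and tested with edgeR 4.0.16 in R 4.3.3 (TMM, filterByExpr, quasi-likelihood test, strain label as a block), with Benjamini-Hochberg adjustment over all genes tested and calls at an adjusted p under 0.05. The scripts were tested on simulated data. The block was used because same-strain classes come from the same strain label, which the labels give. Their deviations correlated at 0.0189 to 0.248 and were highest for the own label in 21 of 21 cases. Alternatives were DESeq2 1.42.0, RLE size factors, no filter, no block, cells weighted alike and each label left out in turn. Other steps used Python 3.11.15, numpy 2.4.6, pandas 2.3.3 and scipy 1.17.1.

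The members and lists were chosen with earlier results of these data known. All 10 members are named in every comparison. Of each further list at most 3 called genes with the largest change are named. Genes of like pattern are named for members read in 10% or more of cells, 3 at most, by Pearson r of mean log2(scaled counts + 1) among genes that averaged at least 5 scaled counts.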

Additional observations from a re-analysis of the deposited data

Results flagged for a closer look

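Levels of the members by cluster were screened in 80 groups of 4 or 5 strain labels, and 1 label stood far from the others in 15 of them. The limit used marks about 1 in 20 groups when values are normally distributed. Many of these levels are skewed and near 0, so that rate need not hold here, and the number marked was not tested. Of the marked values, 5 belonged to Acta2GFP. These were Itga3 in cluster 1 (0.786 scaled counts, 1 read) and cluster 3 (0.240, 2 reads), Itga7 in cluster 1 (3.22, 6 reads in 6 cells) and cluster 9 (1.71, 24 reads), and Itga10 in cluster 1 (0.845, 1 read). C57BL6 was high for Itga1 in cluster 3 (26.7), Itga2 in cluster 4 (83.3, all 177 reads in 1 of 3 cells), Itga3 in cluster 6 (3.97, all 104 reads in 1 of 49 cells) and Itga11 in cluster 7 (70.7, with 97.6% of the reads in 1 of 9 cells). The pool was high for Itga2 in cluster 8 (11.7), Itga7 in cluster 7 (354, 1486 reads in 9 of 11 cells) and Itgb7 in clusters 4 (0.351) and 9 (0.359). PdgfrbGFP was high for Itga10 in cluster 9 (43.2, with 87.2% of the reads in 1 of 13 cells), and Cspg4dsRED for Itgb7 in cluster 7 (4.39, with 118 of 120 reads in 1 of 74 cells). In 5 of these groups a single cell held 87.2% or more of at least 100 reads.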

How the results depend on the processing

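Of 541 alternative fold changes of members, 473 kept their direction and side of the threshold, 32 lost a call, 19 gained one and 17 reversed. RLE size factors changed neither a direction nor a call of any member, and moved the fold changes by 0.12 to 0.16 in cluster 10 and by 0.051 to 0.12 in mural cells. DESeq2 raised the count of called genes in every comparison, to 4336 (mural), 2068 (perimysial), 787 (paramysial), 857 (cluster 2 against 9), 1005 (cluster 10), 2588 (among endomysial clusters) and 115 (soleus), and the members called to 7 in perimysial cells, 2 in cluster 2 against 9, 2 in cluster 10 and 5 among endomysial clusters. With no filter on low counts the genes called were 345 in cluster 2 against 9 and 274 in cluster 10, and the members called were 1 in perimysial cells and 1 in cluster 2 against 9. With cells weighted alike, 33 genes were called in cluster 10 and 0 members in perimysial cells. Without the replicate block 8 paramysial genes and 1 member among endomysial clusters were called. Leaving out each strain label gave 1230 to 2257 called genes in mural cells (lowest without PdgfrbGFP), 395 to 1416 in perimysial, 10 to 64 in paramysial, 35 to 50 in cluster 2 against 9, 0 to 216 in cluster 10 (0 without PdgfrbGFP) and 242 to 737 among endomysial clusters. It gave 0 to 6 members in perimysial cells and 0 to 2 among endomysial clusters. The causes were not tested.

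Reversed values were all of members not called. Leaving out each label gave, in paramysial cells, −1.52 to 3.56 for Itga2 (−1.52 without Acta2GFP and −1.29 without C57BL6), −0.022 to 0.21 for Itga5 (−0.00895 without Acta2GFP and −0.022 without C57BL6) and −1.85 to 1.35 for Itga7 (0.82 without Acta2GFP and 1.35 without C57BL6). Itga7 was at 2.29 there without the block. In cluster 10 it gave −0.312 to 0.357 for Itga5 (−0.312 without Cspg4dsRED and −0.041 without PdgfrbGFP) and −2.12 to 0.054 for Itga8 (0.054 without Cspg4dsRED). There Itga5 became −0.088 with no filter, −0.071 without the block and −0.165 with cells weighted alike, and Itga10 became 0.285 without the block. In soleus, without the block, Itga2 became 0.041, Itga11 −0.028 and Itgb7 0.10. Leaving out a label there leaves no residual degrees of freedom, so it was not run. Levels by cluster stayed within 1 SD in 599 of 600 alternatives, and Itgb7 in cluster 4 rested on the pool alone at 10 or more cells per group (0.351). Shares of cells with a read moved beyond their interval in 76 of 100 after thinning and in 99 of 100 at 100 scaled counts. Genes with few reads (Itga2, Itga3, Itga10 and Itgb7 outside their leading clusters) are limited by depth, and their absence from a cell was not detectable apart from low expression.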
